A study of Bos taurus with 9 samples.

Results

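The 10 genes HSPA5, HSP90B1, DNAJB9, DNAJB11, DNAJC3, PDIA4, SDF2L1, HERPUD1, XBP1 and MANF, chaperones and partners of the unfolded protein response, were chosen by symbol from the 30641 genes of the count table. All 10 were found and all 10 had enough counts to be tested, among 14874 genes tested in all. Their levels were measured by RNA sequencing in bovine cells that the labels call endometrial epithelial, kept in a commercial growth medium, in 3 groups and 9 libraries. The DPPA3 mRNA group (3 libraries) was given, 24 hours after seeding, 500 ng of DPPA3 mRNA made in vitro, carried by jetMESSENGER, a reagent for mRNA transfection. The reagent alone group (3 libraries) was given jetMESSENGER with no RNA at that time. The untreated control group (3 libraries) was given neither. None of these groups received another mRNA. The labels do not say whether replicates were separate cultures or animals, so p-values reflect the spread among these libraries alone, and that spread may be technical. Levels are in CPM, counts per 1000000 counts of the scaled library, and comparisons are log2 fold changes fitted to the counts.

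The unfolded protein response is the set of signals by which a cell adjusts the folding capacity of its endoplasmic reticulum (ER). The sensors ERN1 (IRE1), EIF2AK3 (PERK) and ATF6 detect unfolded proteins in the ER, and their outputs, spliced XBP1, cleaved ATF6 and ATF4, raise the transcription of ER chaperones, of enzymes that form disulphide bonds and of the machinery that removes misfolded proteins. Secretory epithelia such as the glands of the endometrium rely on this capacity when they produce secreted proteins. The members cover the chaperones HSPA5 (BiP) and HSP90B1 (GRP94), the co-chaperones DNAJB11, DNAJB9, DNAJC3 and SDF2L1, the oxidoreductase PDIA4, the degradation factor HERPUD1, the secreted or ER-retained factor MANF, and the transcription factor XBP1. Setting reagent alone against untreated control asks what exposure to the reagent did to their levels, and setting DPPA3 mRNA against reagent alone asks what the mRNA added.

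Total counts lay between 3890134 (reagent alone replicate 1) and 13258036 per library. DPPA3, the transfected transcript, had 126334 to 213790 counts in the DPPA3 mRNA libraries, 0 in each reagent alone library and 0 to 2 in the untreated controls, as labelled. Untreated control replicate 1 stood apart. Its scaling factor was 0.856, against 1.001 to 1.05 in the other 8 libraries, and the gene with the most counts, LOC112442408, took 10.98% of its counts, against 3.05% to 4.36% elsewhere. Member and list values without it are given beside the results. Of 13 epithelial markers 7 had enough counts to be tested. The keratin KRT8 averaged 4262 ± 246 CPM after DPPA3 mRNA, 4067 ± 264 CPM after reagent alone and 4451 ± 493 CPM without treatment (SD, n = 3 each). EPCAM had 37 counts over all libraries, ESRP1 4 and GRHL2 0. All 12 stromal markers were tested, and COL1A2 averaged 13673 ± 1074 CPM after DPPA3 mRNA, 13088 ± 2600 CPM after reagent alone and 14184 ± 1518 CPM without treatment. The cadherin CDH1 averaged 55.97 ± 3.77 CPM after DPPA3 mRNA, 49.9 ± 10.9 CPM after reagent alone and 49.5 ± 4.09 CPM without treatment. Keratins and CDH1 of the labelled cell type were thus present. EPCAM, CLDN3, CLDN4, CLDN7, ESRP1 and GRHL2 had too few counts to be tested, and MUC1 and ELF3 averaged 2.60 and 3.44 CPM without treatment. Stromal transcripts were present too. Beside fibrillar collagens, VIM averaged 1530 ± 188 CPM, POSTN 411 ± 243 CPM and DCN 153 ± 80.9 CPM without treatment, while THY1 averaged 1.01 ± 0.267 CPM. Of 8 endothelial and 10 immune markers 4 and 5 were tested, and PTPRC, MS4A1 and ITGAM were at 0.

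No member passed the threshold in any comparison. For reagent alone against untreated control, 7 of the 10 members had a positive log2 fold change and 3 a negative one, with a median of 0.31 against -0.0099 over all 14874 genes tested, of which 49.2% were positive. The J-domain co-chaperones DNAJB9 and DNAJB11 had the largest log2 fold changes of the 10, 1.16 and 0.62 (2.23-fold and 1.54-fold), and were the 2 members higher in every reagent alone library than in every untreated one. SDF2L1 was lower in every reagent alone library than in every untreated one. With the quasi-likelihood test of edgeR (Benjamini-Hochberg adjusted p under 0.05, over every gene tested), 0 of the 10 members and 0 of the 14874 genes (0%) were called. DESeq2 and limma voom each called 0 members and 2 genes. An unadjusted p under 0.05 was found for 3 members by edgeR, 3 by DESeq2 and 6 by voom. The same tools found it for 1516 genes (10.2%), 1766 genes (11.9%) and 3900 genes (26.2%) of all tested. Groups did not overlap for 2 members in the higher and 1 in the lower direction, where 6.92% and 7.21% of all genes did so.

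**Figure D1:**
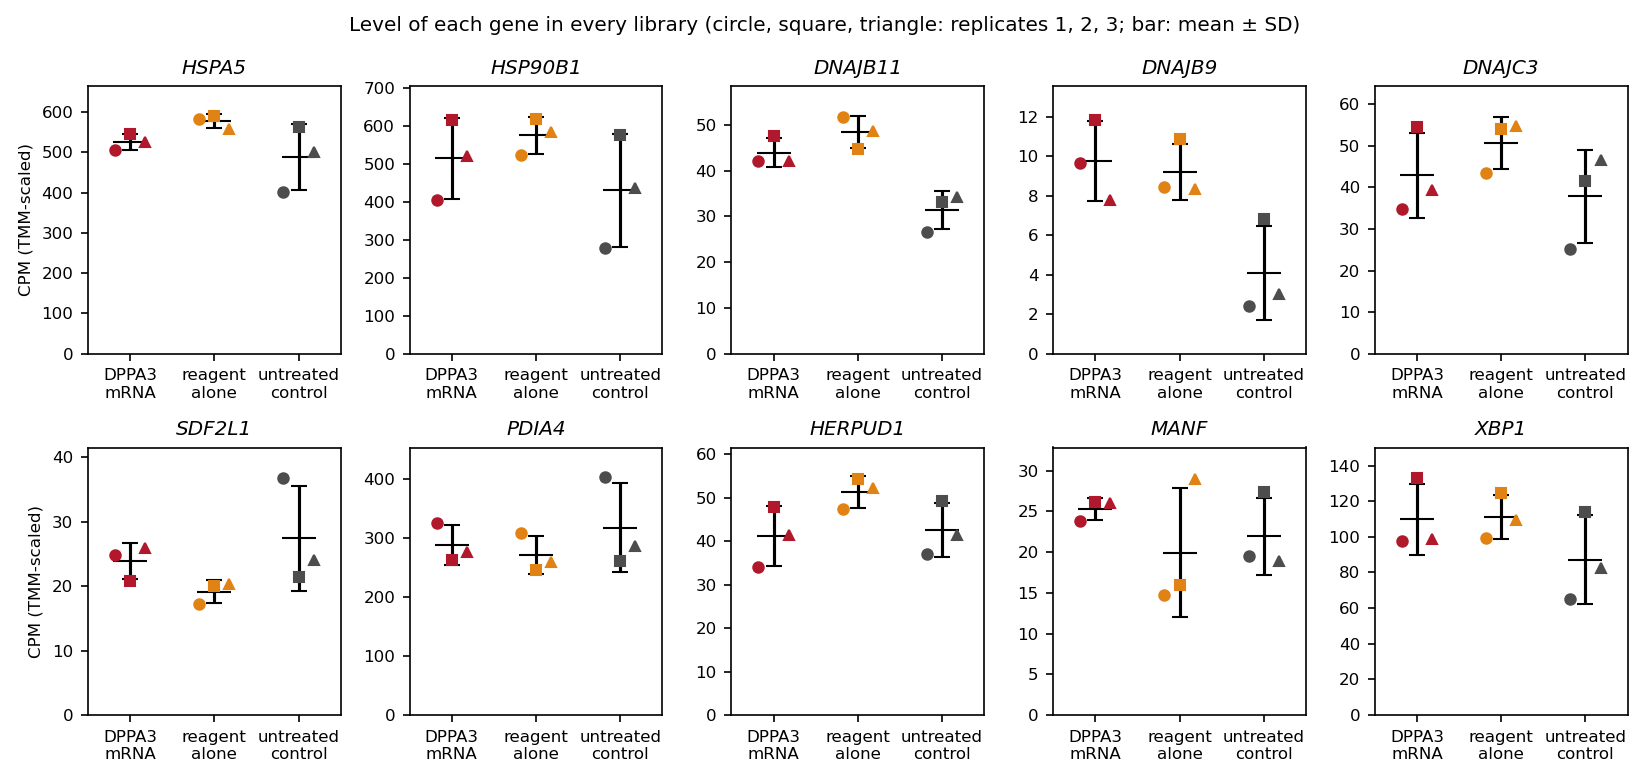
Level of each of the 10 genes (y axis, CPM scaled with TMM factors, from 0) in every library of the DPPA3 mRNA, reagent alone and untreated control groups. Circles, squares and triangles are replicates 1, 2 and 3 and bars are the mean and SD of 3 libraries. DNAJB9 and DNAJB11 lay above all 3 untreated libraries in all 6 treated ones, and untreated control replicate 1 held the lowest value of HSPA5, HSP90B1, DNAJC3 and XBP1 and the highest of PDIA4 and SDF2L1.

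HSPA5, the main Hsp70 chaperone of the ER and the factor that holds the sensors inactive, measured 505, 546 and 526 CPM in the DPPA3 mRNA libraries (replicates 1 to 3), against 583, 591 and 559 CPM in the reagent alone libraries and 400.3, 563 and 502 CPM in the untreated controls. Untreated control replicate 1 was the lowest of the 9 libraries and the reagent alone libraries overlapped the untreated range. The group mean was 525 ± 20.4 CPM after DPPA3 mRNA, 578 ± 17.01 CPM after reagent alone and 489 ± 82.4 CPM without treatment (SD, n = 3 each). For reagent alone against untreated control the fit gave a log2 fold change of 0.24 with an SE of 0.15 and a 95% interval of -0.072 to 0.56 (edgeR adjusted p 0.49). HSP90B1, the Hsp90 of the ER lumen, measured 404, 616 and 522 CPM in the DPPA3 mRNA libraries (replicates 1 to 3), against 523, 619 and 583 CPM in the reagent alone libraries and 279, 576 and 435 CPM in the untreated controls. The untreated libraries spread over a wide range that contained 1 of the reagent alone libraries (log2 fold change 0.42, SE 0.23; interval -0.073 to 0.91; edgeR adjusted p 0.47). Both values depended on single untreated libraries. Without untreated control replicate 1 the log2 fold changes were 0.13 for HSPA5 and 0.20 for HSP90B1, and without untreated control replicate 2 they were 0.36 and 0.69. In bulk RNA, fewer cells that make a transcript and less of it per cell cannot be told apart.

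DNAJB11, a co-chaperone that delivers substrates to HSPA5, measured 42.1, 47.7 and 42.1 CPM in the DPPA3 mRNA libraries (replicates 1 to 3), against 51.8, 44.7 and 48.7 CPM in the reagent alone libraries and 26.6, 33.1 and 34.3 CPM in the untreated controls. All 6 treated libraries lay above all 3 untreated ones, and the reagent alone libraries lay above 2 of the 3 DPPA3 mRNA libraries. Its mean was 48.4 ± 3.54 CPM after reagent alone and 31.3 ± 4.16 CPM without treatment (SD, n = 3 each). For reagent alone against untreated control it had the smallest p of the members, ranked 38 of 14874 (log2 fold change 0.62, SE 0.17; interval 0.25 to 0.99; edgeR adjusted p 0.47). This value moved little when single libraries were left out, between 0.53 and 0.69.

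DNAJB9, a J-domain protein that in mammals recruits HSPA5 to the sensor ERN1 and is a target of spliced XBP1, measured 9.65, 11.8 and 7.81 CPM in the DPPA3 mRNA libraries (replicates 1 to 3), against 8.47, 10.9 and 8.35 CPM in the reagent alone libraries and 2.42, 6.82 and 3.03 CPM in the untreated controls. It was the member with the fewest counts, from 15 in untreated control replicate 1 to 131 in DPPA3 mRNA replicate 2. The exact Poisson 95% interval of the lowest reagent alone value, in replicate 3, was 6.84 to 10.1 CPM, and that of the highest untreated value, in replicate 2, was 5.24 to 8.73 CPM, both for counting error only. These intervals overlap, and the gap between these 2 libraries was not tested directly. For reagent alone against untreated control the fit gave a log2 fold change of 1.16 with an SE of 0.37, which ranked 140 of 14874 by p (interval 0.35 to 1.97; edgeR adjusted p 0.47). It was 0.93 without untreated control replicate 1 and 1.75 without untreated control replicate 2.

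DNAJC3, a J-domain co-chaperone also known as an inhibitor of the eIF2alpha kinases, measured 34.9, 54.6 and 39.3 CPM in the DPPA3 mRNA libraries (replicates 1 to 3), against 43.6, 53.98 and 54.8 CPM in the reagent alone libraries and 25.3, 41.7 and 46.7 CPM in the untreated controls. Reagent alone replicate 1 lay inside the untreated range and replicates 2 and 3 above it (log2 fold change 0.42, SE 0.24, edgeR adjusted p 0.47). The log2 fold change was 0.22 without untreated control replicate 1 and 0.60 without untreated control replicate 3. SDF2L1, which works in complexes with DNAJB11 and HSPA5, measured 24.9, 20.8 and 25.97 CPM in the DPPA3 mRNA libraries (replicates 1 to 3), against 17.2, 19.9 and 20.3 CPM in the reagent alone libraries and 36.7, 21.4 and 24.1 CPM in the untreated controls. All 3 reagent alone libraries lay below all 6 others, by a margin of less than 1 CPM at DPPA3 mRNA replicate 2, and untreated control replicate 1 was the highest library of all. Its log2 fold change for reagent alone against untreated control was -0.50 (SE 0.23, interval -1.01 to -0.0026, edgeR adjusted p 0.47). It was -0.23 without untreated control replicate 1 and -0.65 without untreated control replicate 2.

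PDIA4, an oxidoreductase of the ER that forms and rearranges disulphide bonds, measured 327, 263 and 276 CPM in the DPPA3 mRNA libraries (replicates 1 to 3), against 309, 247 and 259 CPM in the reagent alone libraries and 405, 262 and 288 CPM in the untreated controls. Replicate 1 was the highest library in each of the 3 groups. Its log2 fold change for reagent alone against untreated control was -0.23 (SE 0.18, edgeR adjusted p 0.56). It was -0.0092 without untreated control replicate 1 and -0.35 without untreated control replicate 2. HERPUD1, a membrane protein that organises the degradation of misfolded ER proteins, measured 34.01, 47.8 and 41.4 CPM in the DPPA3 mRNA libraries (replicates 1 to 3), against 47.3, 54.3 and 52.2 CPM in the reagent alone libraries and 37.1, 49.1 and 41.4 CPM in the untreated controls. Reagent alone replicates 2 and 3 were the highest of the 9 libraries, and reagent alone replicate 1 lay inside the untreated range (for reagent alone against untreated control, log2 fold change 0.27, SE 0.18, edgeR adjusted p 0.52). The log2 fold change was 0.19 without untreated control replicate 1 and 0.39 without untreated control replicate 2.

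MANF, a small protein that is held in the ER by HSPA5 and can be secreted, measured 23.8, 26.2 and 25.97 CPM in the DPPA3 mRNA libraries (replicates 1 to 3), against 14.7, 15.99 and 28.99 CPM in the reagent alone libraries and 19.5, 27.4 and 18.9 CPM in the untreated controls. The reagent alone libraries were both the lowest and the highest of the 9, so the group had the widest spread, 19.9 ± 7.91 CPM, against 21.9 ± 4.75 CPM without treatment (SD, n = 3 each). Its log2 fold change was -0.12 for reagent alone against untreated control (SE 0.27; edgeR adjusted p 0.84), -0.51 without reagent alone replicate 3 0.074 without untreated control replicate 2, 0.040 without reagent alone replicate 1 and 0.021 without reagent alone replicate 2. XBP1, the transcription factor whose mRNA is spliced by ERN1, measured 97.9, 133 and 98.5 CPM in the DPPA3 mRNA libraries (replicates 1 to 3), against 99.6, 124 and 109 CPM in the reagent alone libraries and 64.9, 114 and 82.3 CPM in the untreated controls. Replicate 2 was the highest and replicate 1 the lowest library in each group, and the groups overlapped (log2 fold change 0.35, SE 0.21; interval -0.10 to 0.80; edgeR adjusted p 0.48). Between equal numbers, not known to be pairs, XBP1 was higher with reagent alone than without treatment, with log2 differences of 0.62, 0.13 and 0.41. The log2 fold change of XBP1 was 0.19 without untreated control replicate 1 and 0.59 without replicate 2. Counts per gene do not separate spliced from unspliced XBP1.

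**Figure D2:**
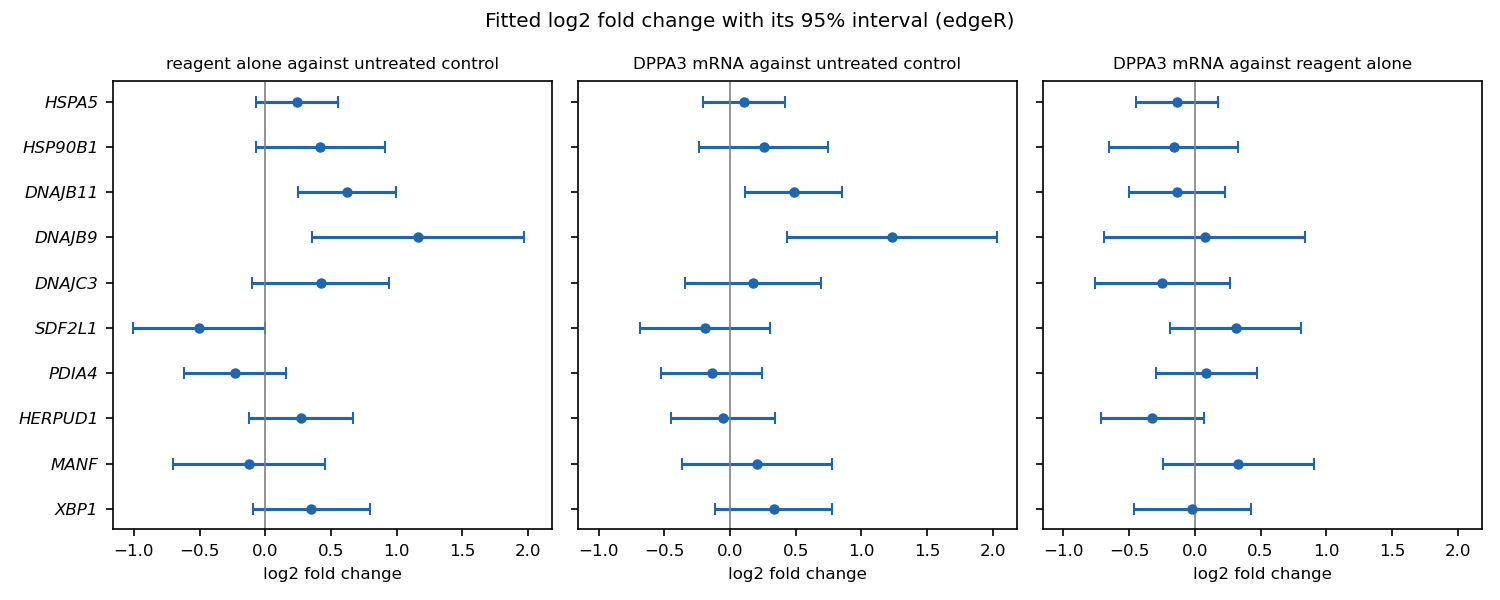
Fitted log2 fold change (x axis) of each of the 10 genes with its 95% interval from edgeR, for reagent alone against untreated control, DPPA3 mRNA against untreated control and DPPA3 mRNA against reagent alone. In the first panel the intervals of DNAJB9 (0.35 to 1.97) and DNAJB11 (0.25 to 0.99) lie above 0 and that of SDF2L1 (-1.01 to -0.0026) below it, and in the last panel every interval contains 0.

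DPPA3 mRNA against untreated control, which measured reagent and mRNA together and shares its untreated libraries with the comparison above, gave a member median of 0.19, against 0.00172 over all genes. DNAJB9 averaged 9.76 ± 2.01 CPM after DPPA3 mRNA against 4.09 ± 2.38 CPM without treatment (SD, n = 3 each; log2 fold change 1.23, SE 0.37; edgeR adjusted p 0.85), and ranked 57 of 14874 by p. DNAJB11 averaged 43.98 ± 3.22 CPM after DPPA3 mRNA against 31.3 ± 4.16 CPM without treatment (log2 fold change 0.49, SE 0.17; edgeR adjusted p 0.85). These were the 2 members whose groups did not overlap, both higher with DPPA3 mRNA, where 4.24% of all genes were so and 3.86% lay in the lower direction. The log2 fold changes of the other 8 members lay between -0.19 for SDF2L1 and 0.33 for XBP1, with those of HSPA5 at 0.10, HERPUD1 at -0.053, HSP90B1 at 0.26, DNAJC3 at 0.17, PDIA4 at -0.14 and MANF at 0.21. When untreated control replicate 1 was left out, DNAJB9 was at 0.996 and DNAJB11 at 0.39, and the values became 0.030 for HSP90B1, 0.17 for XBP1, 0.14 for MANF, -0.14 for HERPUD1, -0.014 for HSPA5, -0.038 for DNAJC3, 0.075 for PDIA4 and 0.076 for SDF2L1. Over each library left out in turn, HSP90B1 lay between 0.030 and 0.53, XBP1 between 0.17 and 0.57 and MANF between 0.11 and 0.40, in each case highest without untreated control replicate 2. By edgeR 0 members and 2 genes, DPPA3 and IFITM1 (0.0134%), were called, IFITM1 losing its call when DPPA3 was removed from the table (adjusted p 0.037 with DPPA3 and 0.075 without it), and DESeq2 and voom called 0 members and 10 and 4 genes. An unadjusted p under 0.05 was found for 2 members and for 582 genes (3.91%). A fit over all 9 libraries that blocked on replicate number, and so tied equal numbers across the 3 groups, called 7 genes and 0 members. Between equal numbers, which the labels do not call pairs, the log2 differences were 1.91, 0.78 and 1.31 for DNAJB9 and 0.66, 0.52 and 0.29 for DNAJB11. HSP90B1 (0.53, 0.10 and 0.26) and XBP1 (0.59, 0.22 and 0.26) were also higher with DPPA3 mRNA at each number. With the block the edgeR adjusted p was 0.39 for DNAJB9 and 0.52 for DNAJB11, HSP90B1 and XBP1 alike.

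DPPA3 mRNA against reagent alone, the comparison among cells that had all received jetMESSENGER, gave a member median of -0.078, against 0.00273 over all genes, with 4 members positive and 6 negative. SDF2L1 averaged 23.9 ± 2.74 CPM after DPPA3 mRNA against 19.1 ± 1.71 CPM after reagent alone (SD, n = 3 each; log2 fold change 0.31, SE 0.23; edgeR adjusted p 0.9998), and every DPPA3 mRNA library lay above every reagent alone library. The closest 2 libraries stood at 20.8 and 20.3 CPM, with overlapping counting intervals. HSPA5 averaged 525 ± 20.4 CPM after DPPA3 mRNA against 578 ± 17.01 CPM after reagent alone and lay lower in every DPPA3 mRNA library (log2 fold change -0.14, SE 0.15; edgeR adjusted p 0.9998). The groups of 4.91% of the genes tested did not overlap in the higher and of 3.99% in the lower direction. HERPUD1 had a log2 fold change of -0.32 (interval -0.72 to 0.071), with 1 DPPA3 mRNA library, replicate 2, inside the reagent alone range. The log2 fold changes were 0.33 for MANF, 0.088 for PDIA4, -0.020 for XBP1, -0.16 for HSP90B1 and -0.25 for DNAJC3, and in these 5 the groups overlapped. With single libraries left out, HSP90B1 lay between -0.31 and -0.019 (highest without DPPA3 mRNA replicate 1, lowest without replicate 2), DNAJC3 between -0.46 and -0.12 (likewise) and MANF between 0.17 and 0.72 (lowest without reagent alone replicate 1, highest without replicate 3). HERPUD1 was -0.21 without DPPA3 mRNA replicate 1. DNAJB9 and DNAJB11 had log2 fold changes of 0.075 and -0.14, with intervals of -0.69 to 0.84 and -0.50 to 0.23, and a difference of either sign within those bounds could not be told from none. By edgeR 0 members and 1 gene, DPPA3 itself (0.00672%), were called. An unadjusted p under 0.05 was found for 0 members and for 248 genes (1.67%), and DESeq2 and voom called 0 members and 9 and 1 genes.

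The members did not share 1 profile across the 9 libraries. Over the 45 pairs, the Pearson correlation of log2 CPM lay between -0.95 and 0.94 with a median of 0.26, as a description, since all pairs share the same libraries and scaling. HSPA5 and HSP90B1 varied together (0.94), as did HSP90B1 and XBP1 (0.93) and DNAJB9 and XBP1 (0.90). PDIA4 varied opposite to HSP90B1 (-0.95) and SDF2L1 opposite to HSPA5 (-0.95). Against the mean standardised profile of the other 9 members, XBP1 and HSP90B1 followed closely (r = 0.94 and 0.92), DNAJB9, HSPA5, DNAJC3, DNAJB11 and HERPUD1 lay between 0.83 and 0.61, MANF was at 0.12, and SDF2L1 and PDIA4 were at -0.86 and -0.91. The mean standardised level of the 10 members was lowest in untreated control replicate 1, at -0.97 SD, and highest in DPPA3 mRNA replicate 2, at 0.52 SD, which also had the highest mean level of interferon-stimulated genes, 6.47 log2 CPM against 2.04 to 4.23 in the other libraries. The part of either library in these correlations was not tested.

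The genes most like that mean profile, among 10433 others with at least 5 CPM on average and a symbol not starting with LOC, were LAMP2 (r = 0.987 over 9 libraries), MPP5 (0.985), PON2 (0.985), GBE1 (0.984), PNRC2 (0.984), PSMA4 (0.981), DERL1 (0.980) and C6H4orf3 (0.980). Leaving out the 2 libraries farthest from the median of the profile, untreated control replicates 1 and 3, these were between 0.901 and 0.960. LAMP2, a lysosomal membrane protein, measured 63.6 to 108 CPM after DPPA3 mRNA, 77.7 to 90.8 CPM after reagent alone, and 29.2, 81.3 and 49.1 CPM in untreated control replicates 1 to 3. A profile of this kind was common: 670 of those genes (6.42%) had a correlation of at least 0.9 with the members' mean, and 460 (4.41%) one of -0.9 or lower. DERL1, a channel component of ER-associated degradation, was the 1 gene of the 8 that belonged to a list of the pathway.

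**Figure D3:**
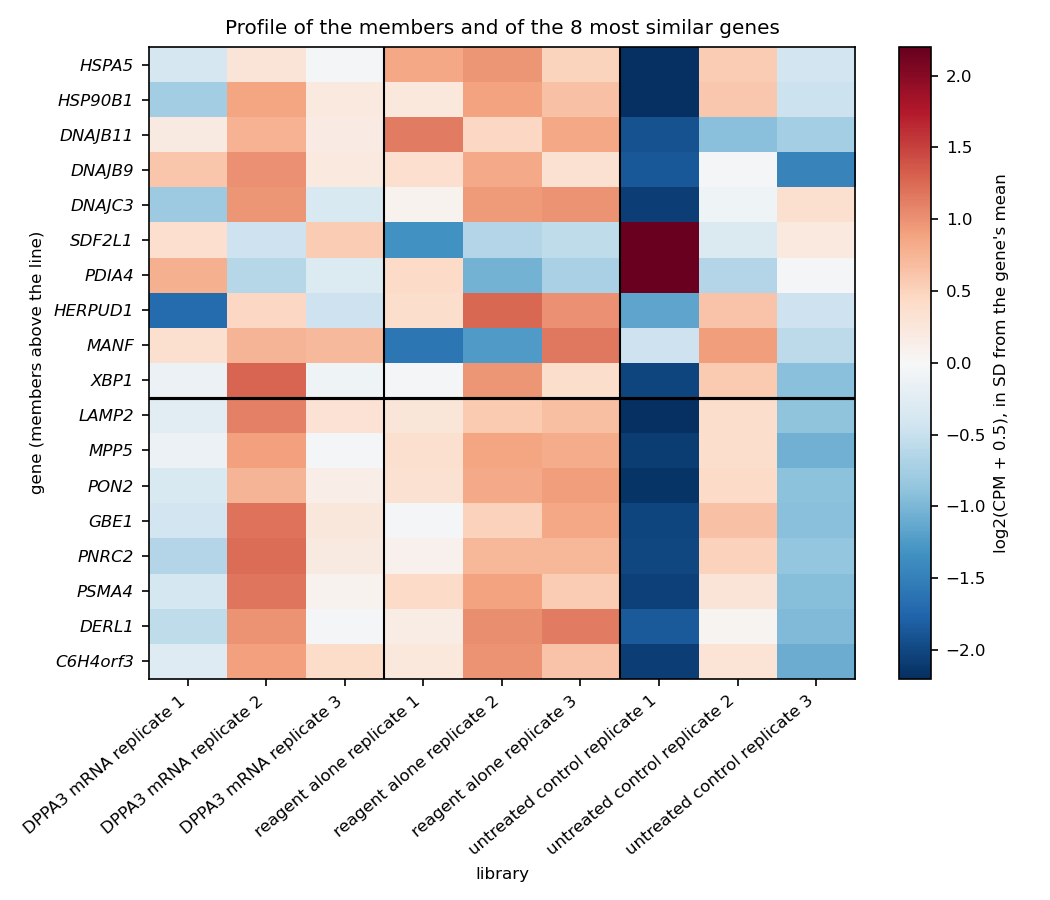
Level of the 10 members (above the line) and of the 8 genes with the most similar mean profile (below it) in each of the 9 libraries, as log2(CPM + 0.5) in SD from each gene's mean (colour). Untreated control replicate 1 is the lowest library of HSPA5, HSP90B1, DNAJB11, DNAJB9, DNAJC3, XBP1 and the 8 similar genes, and the highest of SDF2L1 and PDIA4.

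The other genes of the pathway were described by 6 lists for reagent alone against untreated control, and 0 genes of any of them were called in either direction by edgeR, DESeq2 or voom (smallest edgeR adjusted p 0.47). Among all genes tested, 49.2% were positive and 10.2% had an unadjusted p under 0.05 by edgeR. Groups did not overlap for 6.92% of them in the higher and 7.21% in the lower direction. Among sensors and transcription factors, 5 of 14 tested genes were positive, 2 had an unadjusted p under 0.05 and the median was -0.049. EIF2AK3 averaged 64.4 ± 5.78 CPM after reagent alone and 49.04 ± 5.39 CPM without treatment (log2 fold change 0.39, SE 0.16). MBTPS2 encodes a protease that releases ATF6. MBTPS2 averaged 22.3 ± 1.58 CPM after reagent alone and 15.4 ± 1.07 CPM without treatment (log2 fold change 0.53, SE 0.21). These were the 2 genes of that list whose groups did not overlap. Without untreated control replicate 1 their log2 fold changes were 0.33 for EIF2AK3 and 0.53 for MBTPS2. The log2 fold changes of ATF6 (0.24), ERN1 (-0.26) and ATF4 (-0.0094) came from groups that overlapped. CREB3L1, an ER-bound transcription factor of secretory cells, had the smallest p after those 2 (log2 fold change -0.45, and -0.031 without untreated control replicate 1). The list's median was 0.037 without that library, with 9 of 14 genes positive. It was -0.092 without untreated control replicate 2, with 6 of 14 positive.

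Among other ER chaperones and folding enzymes, 19 of 31 tested genes were positive, 0 had an unadjusted p under 0.05 and the median was 0.089. The 3 with the smallest p, with their log2 fold changes, were ERO1B, an oxidase that serves disulphide formation (0.85), the prolyl isomerase FKBP14 (1.03) and ERP44 (0.41), and no gene of this list had groups apart. HYOU1 and CRELD2, which are partners of HSPA5 and common targets of this response, measured 205 ± 28.9 and 18.001 ± 6.04 CPM after reagent alone and 208 ± 9.06 and 18.7 ± 2.37 CPM without treatment. Among genes of ER-associated degradation, 14 of 24 tested genes were positive, 4 had an unadjusted p under 0.05 and the median was 0.11. FAF2 averaged 46.1 ± 4.48 CPM after reagent alone and 30.6 ± 5.71 CPM without treatment (log2 fold change 0.59, SE 0.18); its protein recruits the segregase VCP. SELENOK, a selenoprotein of the ER membrane, had a log2 fold change of 1.46 from low levels, 4.99 ± 1.51 CPM after reagent alone and 1.80 ± 0.867 CPM without treatment, and UBXN6 had one of -0.52. Without untreated control replicate 1, the log2 fold changes were 0.63 for ERO1B, 0.57 for FKBP14, 0.19 for ERP44, 0.46 for FAF2, 1.78 for SELENOK and -0.27 for UBXN6, and the list medians were 0.067 for the folding enzymes and 0.057 for degradation. Without untreated control replicate 2, these genes were at 1.20, 1.89, 0.68, 0.70, 1.12 and -0.66 in the same order. The 2 list medians were then 0.16 and 0.15.

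Genes of ER translocation and export were the list with a median nearest to that of the members: 26 of 29 tested genes were positive, 5 had an unadjusted p under 0.05 and the median was 0.35. The groups of 5 of them did not overlap, all higher with reagent alone, where 6.92% of all genes tested were so. The 3 with the smallest p, with their log2 fold changes, were SEC62 (0.90), the small GTPase SAR1A (0.61) and the signal peptidase subunit SPCS3 (0.50). For the PERK arm and the integrated stress response, 11 of 19 tested genes were positive, 1 had an unadjusted p under 0.05 and the median was 0.046. The smallest p there belonged to CEBPB (log2 fold change -0.70), SLC7A11 (0.77) and SESN2 (-0.36). DDIT3, the transcription factor CHOP, averaged 18.4 ± 3.86 CPM after reagent alone against 17.02 ± 2.87 CPM without treatment. For cytosolic and mitochondrial chaperones, 12 of 18 tested genes were positive, 1 had an unadjusted p under 0.05 and the median was 0.22. The log2 fold change of DNAJA1 was at 0.63, HSPB1 at -0.39 and HSPD1 at 0.31. Once untreated control replicate 1 was left out, the log2 fold changes were 0.63 for SEC62, 0.35 for SAR1A, 0.36 for SPCS3, -0.26 for CEBPB, 0.68 for SLC7A11, -0.12 for SESN2, 0.41 for DNAJA1, -0.11 for HSPB1 and 0.20 for HSPD1. The list medians were then 0.17 for translocation and export, with 20 of 29 genes positive, 0.12 for the PERK arm and -0.00029 for cytosolic and mitochondrial chaperones. Without untreated control replicate 2 instead, the medians of these lists were 0.55, 0.058 and 0.32. In that fit SEC62 was at 1.18, SAR1A at 0.96, SPCS3 at 0.75, CEBPB at -0.89, SLC7A11 at 1.21, SESN2 at -0.48, DNAJA1 at 0.96, HSPB1 at -0.53 and HSPD1 at 0.51. No difference between the members and these lists was tested. The summed epithelial markers lay at 8591 to 8946 CPM after reagent alone and 8930 to 11058 CPM without treatment. The summed stromal markers lay at 28499 to 36658 CPM after reagent alone and 30881 to 46576 CPM without treatment, and their part in these values was not tested.

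**Figure D4:**
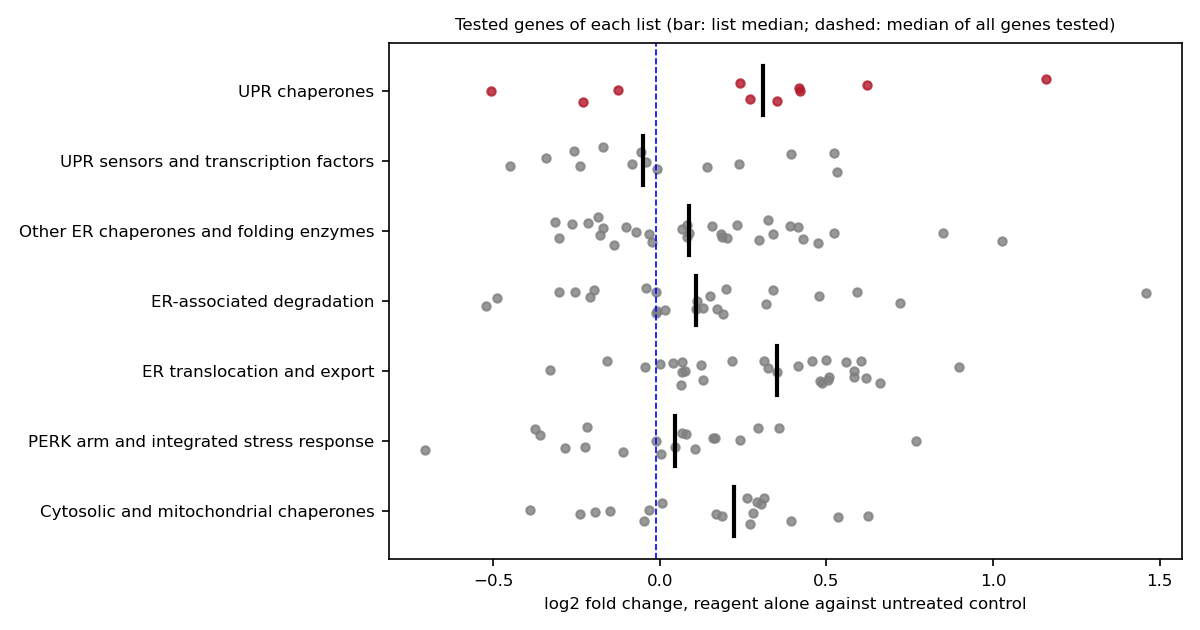
Log2 fold change (x axis) of every tested gene of each list for reagent alone against untreated control, with the 10 members in red, other lists in grey, a bar at each list's median and a dashed line at the median of all genes tested. The medians of the members (0.31) and of ER translocation and export (0.35) are the highest of the 7 shown. They are 0.19 and 0.17 without untreated control replicate 1, and 0.44 and 0.55 without untreated control replicate 2.

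How far the members stood from the untreated cells depended on which untreated library was used. Without untreated control replicate 1 the member median for reagent alone was 0.19 and 2 members had an unadjusted p under 0.05, where 3.95% of all genes did. Without untreated control replicate 2 the median was 0.44, with 6 members and 27.1% of all genes. Without untreated control replicate 3 it was 0.29, with 4 members and 7.84%. In each of these fits 0 members were called. For DPPA3 mRNA against untreated control the median was 0.076 without untreated control replicate 1 and 0.32 without replicate 2. DNAJB11 and DNAJB9 kept a positive log2 fold change for reagent alone under all 14 alternatives, from 0.49 to 0.69 and from 0.93 to 1.75, with adjusted p from 0.057 to 0.93 and from 0.056 to 0.93 (edgeR, DESeq2 or limma).

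**Figure D5:**
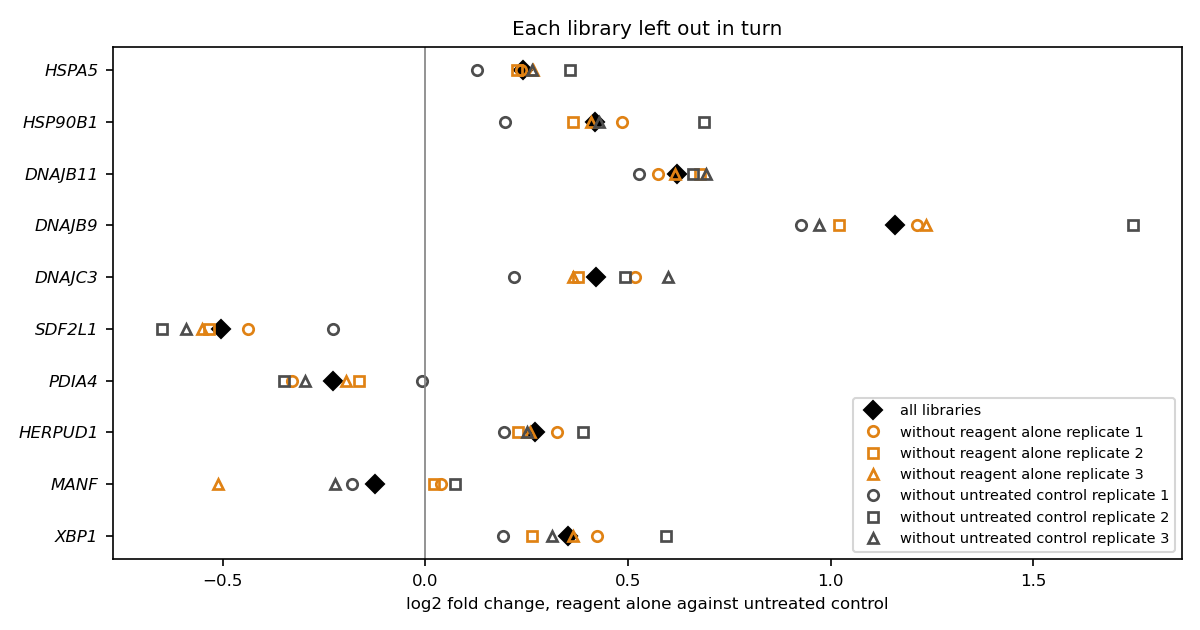
Log2 fold change (x axis) of the 10 genes for reagent alone against untreated control with all libraries (black diamonds) and with each of the 6 libraries compared left out (open symbols). DNAJB9 and DNAJB11 stay right of 0 in all 6 fits, while PDIA4 comes to -0.0092 without untreated control replicate 1 and MANF crosses 0.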

How the data were processed

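Per the labels' protocols, TRIzol and then DNase were used on the total RNA of 9 samples, and libraries were made with an IDT xGen kit. The deposited table holds raw counts for each gene symbol and library. Trimmomatic, HISAT2, HTSeq and edgeR are named in the submitters' processing notes. Their versions, the build, the annotation and the strand setting were not given in the sources used here, and coordinates are left out. By a RefSeq table of ARS-UCD2.0, the span of PDIA4 overlaps that of LOC100336368 (107 to 417 counts per library, against 1240 to 4331 for PDIA4), so shared reads cannot be told apart. That of XBP1 overlaps a tRNA gene with 0 counts in every library. That of DNAJB11 overlaps a noncoding gene that has no row of counts here, so any reads from it cannot be told apart.

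Counts were filtered with filterByExpr (14874 genes left), scaled with TMM factors and fitted over all 9 libraries with edgeR 4.0.16 (glmQLFit, glmQLFTest; R 4.3.3), with a single factor, the group. A gene was called at an adjusted p (Benjamini-Hochberg, whole table) under 0.05. The SE was the size of the log2 fold change over the root of F, and intervals are 95% with the fit's degrees of freedom. CPM uses TMM-scaled library sizes, and log2 CPM a prior count of 2. CPM is not divided by transcript length, so levels are not compared between genes. Depth limits precision most for DNAJB9 (15 to 131 counts). Scripts were tested on simulated data. Replicates differed by more than sampling noise (chi-square per degree of freedom at least 14.4).

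The members and the 11 other lists were chosen with earlier results of these data known. Members, up to 3 genes per list with the smallest p for reagent alone against untreated control, and the 8 genes with the most similar profile are named by rule; ATF6, ERN1, ATF4, HYOU1, CRELD2 and DDIT3 and the markers were named after their values were seen. Of 30 interferon-stimulated genes 27 were tested. For DPPA3 mRNA against untreated control their median log2 fold change was 2.77 and 27 were positive. By edgeR 24 had an unadjusted p under 0.05 (3.91% of all genes) and 1 was called (IFITM1, not called once DPPA3 is removed from the table). For DPPA3 mRNA against reagent alone the median was 2.42, with 23 at an unadjusted p under 0.05 (1.67% of all genes) and 0 called by edgeR. DESeq2 called 3 and 4 of them in these 2 comparisons. For reagent alone against untreated control the median was 0.19, with 0 called by edgeR and 0 at an unadjusted p under 0.05 (HERC6 0.57 and OAS1X -2.14).

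The labels number replicates 1 to 3 in each group. Deviations from group means correlated between equal numbers at 0.34, 0.32 and 0.12 for DPPA3 mRNA and untreated control, all over 0.1, so these numbers were taken to pair those samples, from the data and not from the labels. The alternatives tried were no filter, DESeq2 size factors, the Wald test of DESeq2 1.42.0, limma 3.58.1 voom with quality weights, only the 2 groups compared, a replicate block, DPPA3 removed, each library left out, and the block without untreated control replicate 1. The lists without untreated control replicate 1 or 2 were added after seeing the data.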

Additional observations from a re-analysis of the deposited data

How the results depend on the processing

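Over the 3 comparisons, 0 members were called under any alternative, and the member medians ranged from 0.19 to 0.44 for reagent alone against untreated control, 0.076 to 0.32 for DPPA3 mRNA against untreated control, and -0.17 to -0.016 for DPPA3 mRNA against reagent alone. Of 420 member values under alternatives, 399 kept their sign and 21 changed it, none of them called. With voom the log2 fold change became -0.067 for DNAJB9 (DPPA3 mRNA against reagent alone), -0.12 for DNAJC3 and 0.017 for SDF2L1 (DPPA3 mRNA against untreated control) and 0.020 for MANF (reagent alone against untreated control). With a block on replicate number and untreated control replicate 1 left out, HSPA5 became -0.0016 and SDF2L1 0.091 for DPPA3 mRNA against untreated control. When single libraries were left out, the values spanning 0 were -0.084 to 0.22 for DNAJB9, -0.013 to 0.19 for PDIA4 and -0.18 to 0.070 for XBP1 (DPPA3 mRNA against reagent alone), -0.038 to 0.35 for DNAJC3, -0.17 to 0.069 for HERPUD1, -0.014 to 0.22 for HSPA5, -0.26 to 0.075 for PDIA4 and -0.34 to 0.076 for SDF2L1 (DPPA3 mRNA against untreated control), and -0.51 to 0.074 for MANF (reagent alone against untreated control). Over the whole table, the numbers called in the comparisons of DPPA3 mRNA against reagent alone, DPPA3 mRNA against untreated control and reagent alone against untreated control, in this order, were 66, 69, 18 with no filter, 9, 10, 2 with DESeq2 and 19, 33, 6 when the block was used and untreated control replicate 1 left out. The cause was not tested. Against untreated control, voom called 4 with DPPA3 mRNA and 2 with reagent alone. With DPPA3 removed, the first 2 counts were 0 and 0, and IFITM1 lost its call in DPPA3 mRNA against untreated control (edgeR adjusted p 0.075, against 0.037 with DPPA3 in the table). Dropping each library in turn gave 1 to 20, 1 to 26 and 0 to 1 genes, with the highest of the first 2 without DPPA3 mRNA replicate 1 and the highest of the last without reagent alone replicate 1. In the same order of comparisons, the replicate block gave 2, 7 and 0 genes. It changed no member's call. Between the DPPA3 mRNA and reagent alone groups, equal numbers correlated at 0.14, 0.12 and 0.086, and between reagent alone and untreated control at 0.15, 0.14 and 0.093. Not every value exceeded 0.1, so the data were not taken to show pairing there. Each library was still closest to the equally numbered one of the other group, a hint that the design does not give. The replicate block was fitted over all 9 libraries, so it tied equal numbers in these comparisons too. Set against untreated control by equal number (1 to 3), reagent alone was higher for 7, 7 and 8 of the 10 members. The same share over all genes tested was not computed. The log2 differences were 1.73, 0.66 and 1.40 for DNAJB9, 0.96, 0.43 and 0.50 for DNAJB11 and 0.90, 0.10 and 0.42 for HSP90B1. They were -0.39, -0.088 and -0.15 for PDIA4 and -1.09, -0.10 and -0.24 for SDF2L1. With the block the edgeR adjusted p of DNAJB9 and DNAJB11 was 0.19 for reagent alone against untreated control. With 3 libraries a group and DNAJB9 at 15 counts in its lowest library, small differences could not be detected.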
